A study of Mus musculus with 4 samples.

Results

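The genes described here are 10 surface markers by which hematopoietic stem cells (HSCs) and multipotent progenitors are told apart within LSK cells, the bone marrow cells that lack lineage antigens and carry both Sca-1 and c-Kit. They are *Slamf1*, *Cd48*, *Cd244*, *Cd34*, *Procr*, *Thy1*, *Esam*, *Eng*, *Prom1* and *Ly6a*. Every probe that the array assigns to one of these gene names was taken, whatever its value, which gave 16 of the 41174 probes. The comparison asks whether the makeup of the sorted LSK cells differed between the genotypes, as far as RNA of these markers can show it.

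The arrays compared LSK cells of Mx1-Cre+ Meis1fl/fl mice, called Meis1-deficient here, with LSK cells of Meis1fl/fl mice, called control. All mice carried floxed alleles of *Meis1* (exon 8, which encodes the homeodomain) on the C57BL/6J background. Mx1-Cre is switched on by interferon and is not limited to blood cells. Per the sample labels, mice of both genotypes were injected with poly(I:C), an inducer of interferon, at 4 to 8 weeks of age, with 4 doses of 1.5 ug/g. The design text and the microarray methods instead call the control mice sham-treated, so that poly(I:C) exposure and genotype cannot be told apart if that is right. The cells were collected 1 week after poly(I:C), and each genotype is represented by 2 pools of 6 mice, 1 array per pool. In RNA of pooled cells, fewer cells of a type and less RNA per cell cannot be told apart.

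LSK cells are a mixture. HSCs with long-term activity carry CD150, the product of *Slamf1*, and lack CD48 and CD244, whereas the multipotent and more restricted progenitors in the same gate carry CD48 and, in part, CD244. These 3 proteins belong to the signaling lymphocyte activation molecule (SLAM) family of immunoglobulin-like receptors, and CD48 is the ligand of CD244. In the adult mouse, CD34 is absent or low on long-term HSCs and present on progenitors, whereas EPCR (*Procr*), ESAM, endoglin (*Eng*) and low levels of Thy1 mark the stem cell end of the gate. Prominin-1 (*Prom1*) marks stem cells in human blood. Sca-1, the product of *Ly6a*, is a criterion of the sort itself, and its gene responds to interferon.

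The probes are 60 bases long, and 5 of the 10 genes have more than 1. Shown is 1 probe for each of these 5 genes, *Cd244*, *Cd48*, *Slamf1*, *Prom1* and *Thy1*, because the results below turn on whether their probes moved together or were detected at all. Only probes with a reading frame free of stop codons were shown, and the brightest *Cd244* probe and the other *Prom1* probe have none.
Cd244 A_52_P541344: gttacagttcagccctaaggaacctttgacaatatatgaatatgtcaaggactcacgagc
Cd48 A_52_P460230: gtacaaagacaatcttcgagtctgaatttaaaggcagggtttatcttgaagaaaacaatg
Slamf1 A_52_P158959: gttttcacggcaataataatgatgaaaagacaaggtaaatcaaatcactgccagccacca
Prom1 A_52_P402786: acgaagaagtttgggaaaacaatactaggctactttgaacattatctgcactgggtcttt
Thy1 A_51_P420731: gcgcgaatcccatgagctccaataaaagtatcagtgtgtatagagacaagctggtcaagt

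On the mm9 positions that the array annotation gives, the *Cd244* probe lies at chr1:173507474-173508000 and the *Slamf1* probe at chr1:173718133-173722451, both on the + strand. The *Thy1* probe lies at chr9:43854991-43855436 on the + strand. These 3 positions cover 527, 4319 and 446 bases of the genome for 60 bases of probe, as for a probe that crosses a splice junction. The *Cd48* probe (chr1:173625933-173625992, + strand) and the *Prom1* probe (chr5:44397410-44397469, - strand) cover 60 bases. Exon and UTR annotation was not used here.

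Values are log2 of the processed signal relative to the 75th percentile of the array, so that 0 is the 75th percentile and levels of different probes are not set against each other. The first pools of the genotypes shared slide 1 and the second pools shared slide 2. Between 49.2% and 57.4% of spots were well above background on an array, and the second Meis1-deficient array was the dimmest and correlated least with the others (r of 0.891 to 0.916 across 22007 tested probes). At the 2 probes of *Meis1*, the differences were -0.997 and -1.70, each negative within slide 1 and within slide 2. Neither met the criteria given below, and the second, A_52_P26195, passed them once the slide was blocked (limma adjusted p = 0.498), although the second Meis1-deficient array was not distinguished from background there. c-Kit RNA, the other positive criterion of the gate, was at 1.95 and 1.81 in Meis1-deficient cells against 2.03 and 2.14 in controls, a difference of -0.21 ± 0.42 (SE, adjusted p = 0.983 by limma).

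No surface marker probe met the criteria of the study (more than 2-fold, with p under 0.01 before adjustment). Of the 16 probes, 14 from 9 genes were bright enough to test, that is, well above background on each array of 1 genotype or of both. On all 4 arrays, 12 probes were. None of the 14 met the criteria, against 0.736% of all tested probes, and none had an unadjusted p under 0.05, against 2.81% of all. The adjusted p by limma lay between 0.983 and 0.995 for all 14. With the slide as a block, again none met the criteria, against 1.99% of all tested probes. The standard errors were 0.45 to 0.65, and none of the 14 intervals at 95% confidence lay within 2-fold in both directions, so that these arrays do not show that any marker stayed the same.

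**Figure D1:**
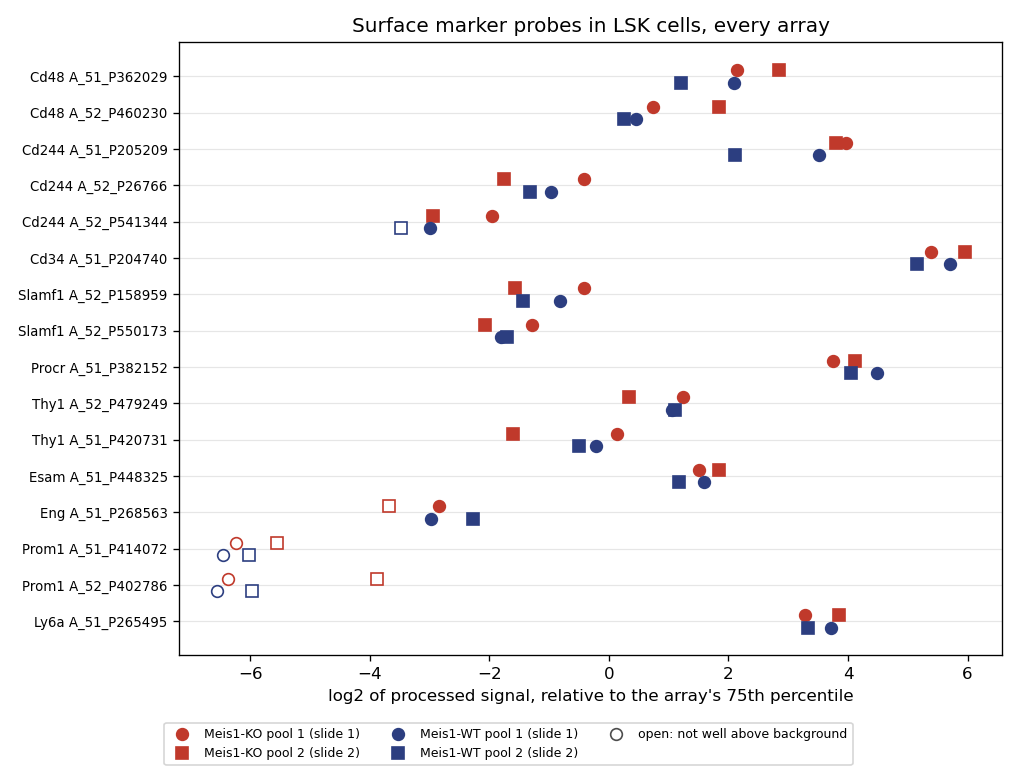
Log2 signal relative to the 75th percentile of the array (horizontal axis) for each of the 16 probes (rows) on each array; red marks Meis1-deficient pools, blue control pools, circles slide 1 and squares slide 2, and open symbols are not well above background. Red and blue separate at both Cd48 probes and at 2 of the 3 Cd244 probes, and both Prom1 probes are open on all 4 arrays.

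The largest differences were those of *Cd48* and *Cd244*, the ligand and receptor that mark the progenitor end of the gate. At the brighter *Cd48* probe, A_51_P362029, the 4 values were 2.14 and 2.85 in Meis1-deficient cells against 2.09 and 1.20 in controls. At the other probe, A_52_P460230, whose sequence is given above, they were 0.74 and 1.84 against 0.46 and 0.25. Both Meis1-deficient pools were above both control pools at each probe, but at the brighter one by a gap of 0.05. The difference was 0.85 (SE 0.53, 95% interval -0.44 to 2.13, adjusted p = 0.983 by limma) at the brighter probe and 0.93 (SE 0.52, -0.34 to 2.21, adjusted p = 0.983 by limma) at the other. In folds, these were 1.80 and 1.91. Nearly all of the *Cd48* difference lay on slide 2. Within slide 1 it was 0.05 and 0.28, and within slide 2 it was 1.65 and 1.59. The 2 probes lie 9114 bases apart and read the same 2 pools, so they are not independent evidence of a change in cells.

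*Cd244*, named *Cd244a* in RefSeq, encodes the receptor for CD48. Its brightest probe, A_51_P205209, stood at 3.97 and 3.80 in Meis1-deficient cells against 3.52 and 2.11 in controls. The groups did not overlap, and the second control pool was the low one. The difference was 1.07 (SE 0.58, 95% interval -0.34 to 2.48, adjusted p = 0.983 by limma), the largest among the 14 probes and 2.10-fold. It was 0.46 within slide 1 and 1.69 within slide 2. The probe A_52_P541344, shown above, had values of -1.96 and -2.94 against -3.00 and -3.48, and was well above background on 3 arrays, not on that of the second control pool. Its difference of 0.79 (SE 0.52, adjusted p = 0.983 by limma) came with groups that were 0.06 apart. The third probe, A_52_P26766, did not share this pattern. It stood at -0.42 and -1.76 against -0.97 and -1.32, and its difference of 0.05 (SE 0.57, 95% interval -1.34 to 1.45) went up on slide 1 and down on slide 2. Its position is 741 bases beyond that of the brightest probe.

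At 4 of the 14 tested probes the arrays of the genotypes did not overlap, all 4 with Meis1-deficient cells higher and all at *Cd48* or *Cd244*. The *Cd244* probe A_52_P541344 is one of them, but it was tested only because it was well above background on both Meis1-deficient arrays, so that its place in this count is partly set by the filter, and its gap was measured with a control array that was not above background. Over all tested probes, 16.0% did not overlap with Meis1-deficient cells higher and 10.9% with Meis1-deficient cells lower. The same 4 probes were the only ones of the 14 with the same direction on both slides, which held for 30.3% (higher) and 21.0% (lower) of all tested probes. Groups that do not overlap must agree in direction on both slides and keep the sign whichever 1 array is left out. Neither is therefore further support, and only the sizes are added here. With 1 array left out, the difference ranged from 0.40 to 1.29 and from 0.39 to 1.48 at the brighter and the other *Cd48* probe. At the brightest *Cd244* probe it ranged from 0.37 to 1.77. In such a fit the array left alone in its group is taken to vary as the arrays of the other group do.

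**Figure D2:**
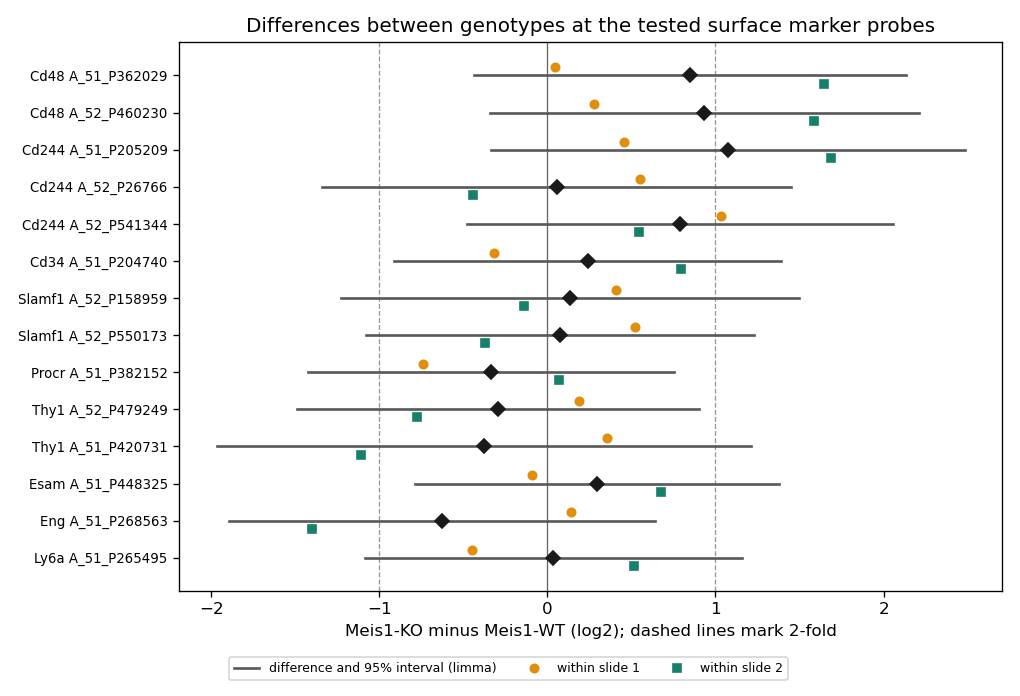
Difference between genotypes (log2, horizontal axis) at each of the 14 tested probes: diamonds are the fitted difference, lines its 95% interval by limma, orange circles the difference within slide 1, green squares that within slide 2, and dashed lines 2-fold. Every interval holds 0, and both slides lie above 0 only at the 2 Cd48 probes and at 2 Cd244 probes.

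*Cd34*, present on progenitors and low on long-term HSCs, had values of 5.39 and 5.95 in Meis1-deficient cells against 5.71 and 5.15 in controls. The groups overlapped, and the highest and the lowest value were both on slide 2. The difference was 0.24 (SE 0.47, 95% interval -0.91 to 1.39), and it was -0.31 within slide 1 and 0.80 within slide 2. It turned negative under quantile normalization (-0.052), so no direction was settled.

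At the stem cell end, *Slamf1* (CD150) overlapped between genotypes at both probes. Its brighter probe, A_52_P158959, gave -0.41 and -1.58 in Meis1-deficient cells against -0.82 and -1.44 in controls. The second probe, A_52_P550173, gave -1.29 and -2.07 against -1.81 and -1.70. The first Meis1-deficient pool was the highest and the second the lowest at each probe. The differences were 0.13 (SE 0.56, 95% interval -1.23 to 1.49) and 0.07 (SE 0.47, -1.08 to 1.23). The 2 pools of Meis1-deficient cells thus differed from each other by more than the genotypes did.

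*Procr* encodes EPCR, the endothelial protein C receptor, which marks a fraction rich in HSCs. It stood at 3.74 and 4.11 in Meis1-deficient cells against 4.48 and 4.04 in controls. The first control pool was the highest, and the groups overlapped by the small distance between 4.11 and 4.04. The difference was -0.33 (SE 0.45, 95% interval -1.42 to 0.76), and the upper bound is 1.69-fold. Within the slides it was -0.74 and 0.07. It ranged from -0.55 to -0.12 with arrays left out, the latter without the first control array.

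*Thy1*, a small lipid-anchored protein, stood at 1.24 and 0.33 against 1.05 and 1.10 at its brighter probe, A_52_P479249. At the other probe, A_51_P420731, the values were 0.14 and -1.61 against -0.22 and -0.50. At both probes the first Meis1-deficient pool was the highest of the 4 and the second the lowest. The differences were -0.29 (SE 0.49, 95% interval -1.49 to 0.90) and -0.38 (SE 0.65, -1.97 to 1.21). Without the second Meis1-deficient array they turned to 0.16 and 0.50.

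*Esam* encodes an adhesion molecule of endothelial cells, platelets and HSCs. It stood at 1.50 and 1.84 in Meis1-deficient cells against 1.59 and 1.17 in controls. The groups overlapped. Within slide 1 the difference was -0.09 and within slide 2 it was 0.68. The fitted difference was 0.29 (SE 0.45, 95% interval -0.79 to 1.38), and it was 0.082 without the second control array and 0.12 without the second Meis1-deficient one.

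*Eng* encodes endoglin, a co-receptor for ligands of the TGF-beta family. Its only probe was dim, at -2.84 and -3.67 in Meis1-deficient cells against -2.98 and -2.28 in controls, and was well above background on 3 arrays, not on the second Meis1-deficient one. The difference of -0.63 (SE 0.52, 95% interval -1.89 to 0.64) came from slide 2, where it was -1.40 with the dim array in it, against 0.14 on slide 1. Without the second Meis1-deficient array it was -0.21. After normexp background correction it was 0.19, so that its sign depends on how background is handled.

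*Prom1* was not well above background at either probe on any array, and no fold is given. The values were -6.24 and -5.56 against -6.46 and -6.02 at A_51_P414072. At A_52_P402786 they were -6.38 and -3.88 against -6.56 and -5.97. The lowest signal that counted as well above background on the second Meis1-deficient array was -3.25, so its value of -3.88 lay below that array's limit.

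*Ly6a*, the gene of the sorting antigen Sca-1, stood at 3.27 and 3.85 in Meis1-deficient cells against 3.72 and 3.33 in controls. The pools of the genotypes interleaved, with the second Meis1-deficient pool highest and the first lowest. The difference was 0.03 (SE 0.46, 95% interval -1.09 to 1.16), made of -0.45 within slide 1 and 0.52 within slide 2. Because cells were sorted on this protein, its RNA is no independent measure of the makeup of the gate. The interferon-stimulated genes, read in the same cells because both poly(I:C) and Mx1-Cre act through interferon, had a median difference of 0.02 over 20 tested probes of 13 genes, with medians of 0.27 within slide 1 and -0.61 within slide 2. None of these probes met the criteria in either direction. *Oas2*, a sensor of double-stranded RNA, had a difference of -1.31 (SE 0.83), and its relative *Oasl2* had one of -0.95 (SE 0.61), each with an adjusted p of 0.983 by limma.

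Over the 14 tested probes, 10 differences were above 0 and 4 below, with a median of 0.10, beside 56.3% above 0 and a median of 0.08 over all tested probes. By gene, at the brightest probe, 6 of 9 were above 0 (*Slamf1*, *Cd48*, *Cd244*, *Cd34*, *Esam* and *Ly6a*) and 3 below (*Procr*, *Thy1* and *Eng*). Without scaling between arrays, where the median of all tested probes was -0.30, 2 of the 9 were above 0. Grouped by role, the 3 genes of the progenitor end had a median of 0.85 and the 5 tested genes of the stem cell end one of -0.29. These roles were assigned with the values known and were not tested. Over the settings tried, the median of the progenitor end ranged from 0.37 to 1.29 and that of the stem cell end from -0.67 to 0.12. Within slide 1 alone the medians were 0.05 and 0.14, and within slide 2 they were 1.65 and -0.14.

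**Figure D3:**
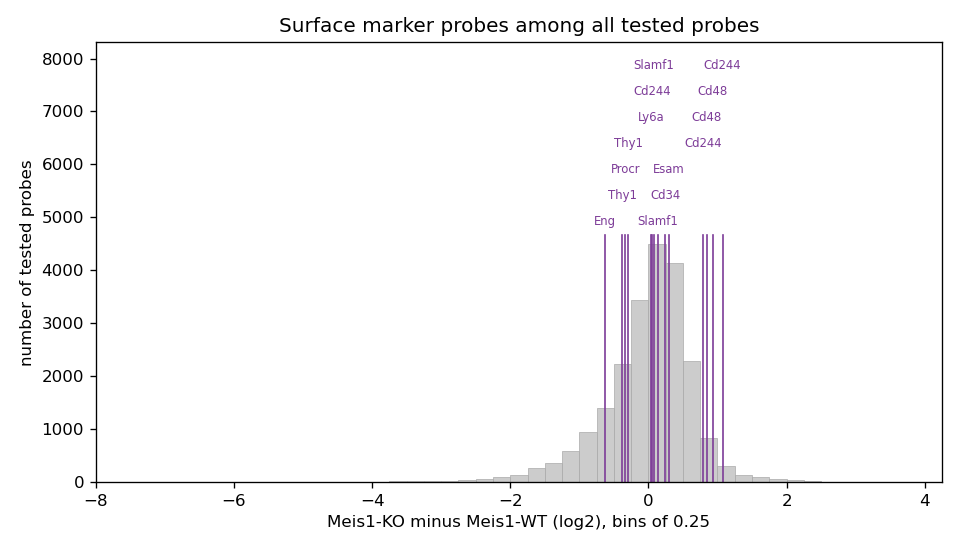
Number of tested probes (vertical axis) by difference between genotypes (log2, in bins of 0.25), with a purple line for each of the 14 surface marker probes and its gene above it. The lines run from -0.63 for Eng to 1.07 for Cd244, around the median of 0.08 of all 22007 probes.

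Replicate spread was larger in Meis1-deficient cells. The median SD between the 2 pools over the 14 probes was 0.57 in Meis1-deficient cells and 0.30 in controls, beside 0.50 and 0.26 over all tested probes. At the marker probes, the direction of that spread went with the level of the probe. Only for this were probes split by level. All 6 marker probes with a mean below 0 (both of *Slamf1*, 2 of *Cd244*, 1 of *Thy1* and that of *Eng*) were lower on the second Meis1-deficient array than on the first, by a median of -1.07. Of the 8 with a mean above 0, 6 were higher on it. Among all tested probes, 49.2% of those with a mean below 0 were lower on that array, and 62.9% of those above 0 were higher. The part of signal level in the differences of these genes was not tested.

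*Cd244*, *Cd48* and *Slamf1* lie in 1 stretch of chromosome 1, with other SLAM family genes between and beside them. From the first *Cd244* probe to the last *Slamf1* probe, the stretch covers 223 kb of mm9. In their order on the chromosome, the genes with tested probes are *Cd244*, *Ly9*, *Slamf7*, *Cd48*, *Slamf1* and *Cd84*. *Ly9*, a receptor that binds its own kind on lymphocytes and progenitors, lies between *Cd244* and *Slamf7*. It stood at -0.97 and -1.50 in Meis1-deficient cells against -0.09 and -0.06 in controls, and the groups did not overlap. The difference was -1.16 (SE 0.44, 95% interval -2.24 to -0.08, adjusted p = 0.983 by limma). *Slamf7*, a receptor of plasma cells and natural killer cells, had values of -2.67 and -4.45 against -0.73 and -1.99 at A_52_P261262, well above background on 3 arrays. Its difference was -2.20 (SE 0.75, adjusted p = 0.983 by limma), and it did not meet the criteria. It passed them in the fit that blocks on slide (adjusted p then 0.176 by limma). The dim array was the second Meis1-deficient one, so its part of the difference has no exact size, and without that array the difference was -1.31. *Cd84* had a difference of -0.36 (SE 0.45). Of the 8 other SLAM family and adaptor genes, 4 were tested at 4 probes, all 4 with a difference below 0 and a median of -1.13, and 3 were dim at every probe on all arrays. The fourth tested gene, *Slamf9*, spread widely between pools, with a difference of -1.10 (SE 1.05). At the probes listed, the differences of *Cd244*, *Cd48* and *Slamf1* were above 0 and those of their neighbors below 0, but without scaling between arrays both *Slamf1* probes and the third *Cd244* probe were below 0 too.

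**Figure D4:**
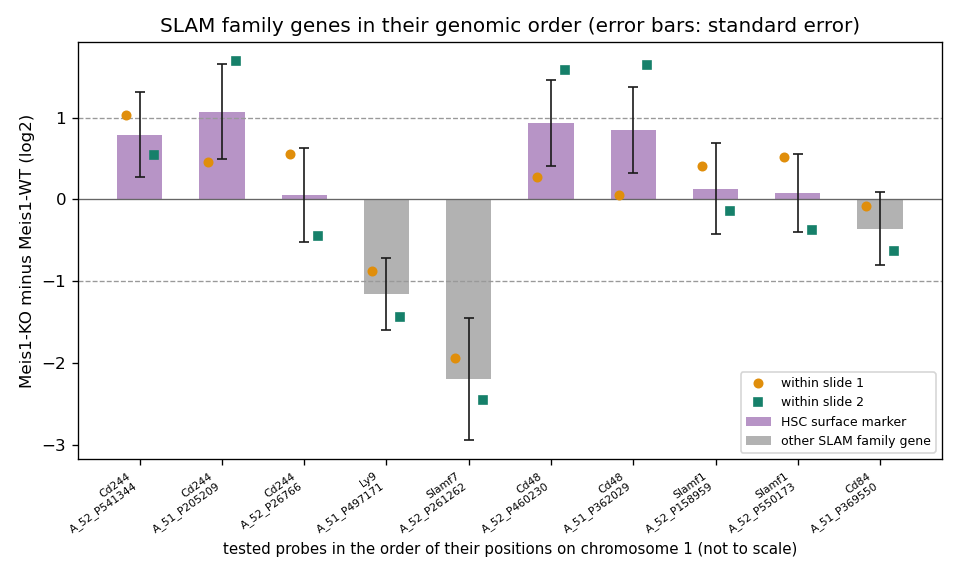
Difference between genotypes (log2, vertical axis, bars with standard errors) at the tested probes of SLAM family genes in the order of their positions on chromosome 1, not to scale; circles and squares give the difference within slide 1 and slide 2. The Cd244, Cd48 and Slamf1 bars (purple) range from 0.05 to 1.07, and the Ly9, Slamf7 and Cd84 bars (gray) from -2.20 to -0.36.

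The other surface genes by which LSK subsets are described gave a wider picture. Of 23 genes, all with a tested probe (31 tested probes), *Flt3* met the criteria and no other did. The median difference was -0.14, with 21 probes below 0 and 10 above. *Flt3*, the receptor that marks lymphoid-primed progenitors in the gate, stood at -2.32 and -4.72 in Meis1-deficient cells against -0.20 and -0.19 in controls. Its difference was -3.33 (SE 0.80, adjusted p = 0.983 by limma), but the signal on the second Meis1-deficient array was not distinguished from background, so that this difference has no exact size. Without that array it was -2.13, and after normexp background correction it was -1.05. It no longer met the criteria without scaling between arrays, by the t-test of the study's methods, or without either control array. *Il7r*, the interleukin-7 receptor of lymphoid progenitors, had a difference of -1.36 (SE 0.48), and *Itga2b*, which encodes CD41, one of -1.65 (SE 0.66), and neither met the criteria. That of *Itga2b* was -0.74 without the second control array, -2.55 without the first and -0.45 after normexp. The other members of the Ly6 family, relatives of Sca-1, had a median of -0.04 over 8 probes, 4 below 0 and 4 above. Within slide 1 their median was -0.97 and within slide 2 it was 1.01. *Ly6i* and *Ly6d*, with the lowest p among them, had differences of 0.80 (SE 0.59) and -1.23 (SE 1.03).

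Markers of cells that the sort should leave out were read on the same arrays. Of the antigens stained to exclude lineage-positive cells, *Cd3e* and *Cd3g* (T cells) were not well above background on any array, and *Cd3d* was on 2. *Itgam*, which encodes CD11b, was well above background on all 4 arrays at 1 of 2 probes, at 2.57 and 0.88 in Meis1-deficient cells against 2.14 and 0.76 in controls, so it followed the slide. *Ptprc*, whose product includes B220, had differences between -1.03 and 0.15 at 4 probes. *Ly6c1*, part of what the Gr-1 antibody binds, had a difference of -0.83 (SE 1.31). *Ly6g* has no probe under that name. Over the 11 probes of these genes, 6 were tested and none met the criteria.

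*Hbb-b1* RNA, named after its values were seen, stood in the same order of arrays as the *Cd48* probes. The share of all tested probes in that order was not counted. *Hbb-b1*, the beta chain of adult hemoglobin, was at 6.55 and 7.93 in Meis1-deficient cells against 6.30 and 4.46 in controls at its brightest probe. Its 4 probes were higher in both Meis1-deficient pools than in both control pools, as were 16.0% of all tested probes. The 4 read the same pools, and none met the criteria. The summed signal of 6 erythroid genes, relative to the 75th percentile, was 98.3 and 245 in Meis1-deficient cells against 85.9 and 23.3 in controls, a sum in which bright probes weigh most. Without *Hbb-b1*, that of the other 5 genes was 4.72 and 1.86 against 6.87 and 1.32, and it followed the slide. Of the 9 tested erythroid probes, 6 had a difference above 0 and 3 (*Hba-a1*, *Klf1* and *Alas2*) below. The median difference was 1.72, and it was 0.44 within slide 1 and 2.15 within slide 2. *Rhag*, a membrane protein of red cells, met the criteria with a difference of 1.72 (SE 0.46, adjusted p = 0.983 by limma), and it was the only one of the 9 probes that did. The study's methods name TER119, an antigen of erythroid cells, among the lineage markers. Whether RNA of the erythroid lineage has a part in the *Cd48* and *Cd244* values was not tested.

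The summed signal of 8 granulocyte and monocyte genes was 73.5 and 84.8 in Meis1-deficient cells against 127 and 35.7 in controls. Among them *Elane*, neutrophil elastase, met the criteria with a difference of -1.57 (SE 0.42, adjusted p = 0.983 by limma). That of 5 megakaryocyte genes was 5.21 and 9.79 against 7.90 and 32.2, with the second control pool apart. *Itga2b* is one of these genes too, and *Pf4*, platelet factor 4, had a difference of -1.35 (SE 0.82). That of 5 B and plasma cell genes ranged from 14.4 to 39.2, with the first pools of each genotype at the ends. All 6 of their tested probes had a difference below 0, but their median was -1.80 within slide 1 and 0.30 within slide 2. *Sdc1*, a plasma cell marker, had a difference of -1.70 (SE 0.73). That of 5 T and NK cell genes was 4.51 and 8.49 against 5.43 and 4.42. *Cd8a* had a difference of -1.34 (SE 0.43). *Cd5* was dim on both control arrays, and it was tested only because both Meis1-deficient arrays were well above background. Its higher signal there is thus partly set by the filter, and the bound is at least 1.72-fold. None of the probes of these last 3 lists met the criteria, but *Cd5* passed them with the slide as a block. That pass and its adjusted p of 0.983 by limma rest on control values not well above background.

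*Cd34*, *Procr*, *Esam* and *Eng* are also genes of endothelial cells, so endothelial markers bear on how they are read. Of 9 endothelial genes, 5 were tested, with a summed signal of 7.01 and 4.21 in Meis1-deficient cells against 4.39 and 6.44 in controls and a median difference of -0.07. None of the 6 tested probes met the criteria, and 9 of the 17 probes were dim on all arrays. *Flt1*, a receptor for vascular endothelial growth factor, was dim on both control arrays. It was tested only because both Meis1-deficient arrays were well above background. Its higher signal there is thus partly set by the filter, and the bound is at least 1.49-fold. It passed the criteria in the fit that blocks on slide. That pass and its adjusted p of 0.983 by limma rest on control values not well above background. *Kdr*, another such receptor, had a difference of -1.13 (SE 0.92). *Eng* shared with this list that the first Meis1-deficient and the second control pool were the upper pair of arrays, which *Cd34*, *Procr* and *Esam* did not. The share of all tested probes with that upper pair was not counted. *Eng* was also not well above background on the second Meis1-deficient array. The part of endothelial RNA in the values of these genes was not tested.

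**Figure D5:**
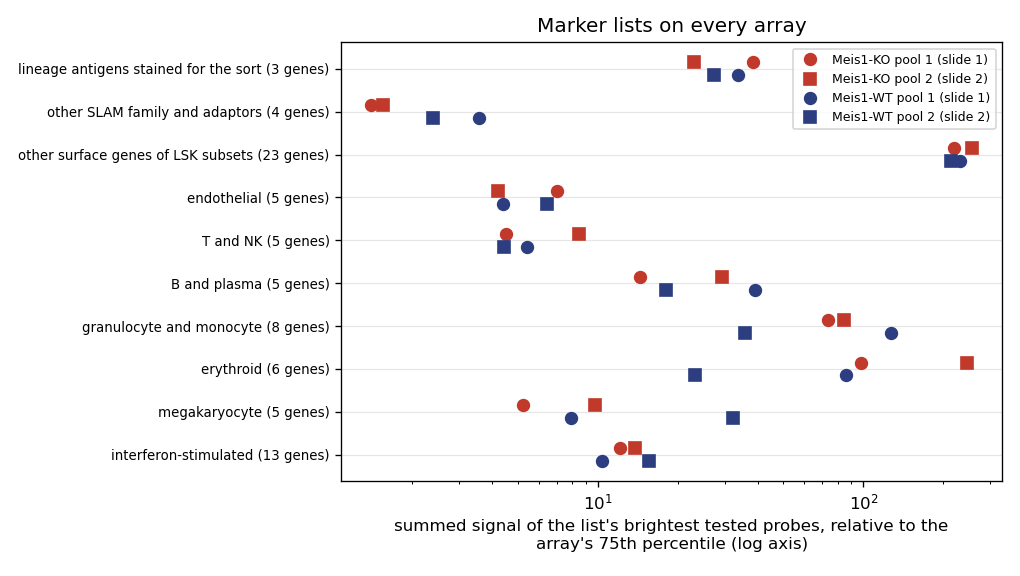
Summed signal of the brightest tested probe of each gene in a marker list (rows, number of genes in brackets), relative to the 75th percentile of the array, on a log axis; red marks Meis1-deficient and blue control pools, circles slide 1 and squares slide 2. The erythroid list, which includes Hbb-b1, runs from 23.3 in the second control pool to 245 in the second Meis1-deficient pool, and only the other SLAM family list has both red symbols below both blue ones.

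Promoter windows from RefSeq (GRCm38.p6, 250 bases before to 50 after the gene start) were at hand for 7 of the 10 genes, in 8 windows. TGACAG, the core that MEIS proteins are known to bind, was in none of the 8 on either strand, beside 19.2% of all 32851 windows. TGATTNAT, a form of the joint site of PBX and HOX proteins, was also in none, beside 3.22% of all. These letters are not in these windows, and nothing follows from that about binding elsewhere.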

How the data were processed

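RNA of LSK cells was read on 4 single-color arrays, and genotype and replicate came from the sample labels. The authors deposited spot intensities from Feature Extraction 9.5.3.1 per the file headers (9.1 per the labels), background-subtracted and detrended within an array but not scaled between arrays, with surrogate values for 25.2% to 33.2% of spots. After control and outlier spots had been dropped and repeated spots averaged, the deposited intensities were turned to log2 and the 75th percentile of the array was subtracted. Probes were tested where both pools of one genotype, or of the other, were well above background. Genotypes were compared with limma 3.58.1 (lmFit, eBayes; R 4.3.3), without covariates, and p-values were adjusted by Benjamini-Hochberg over 22007 probes. The fit was tested on simulated data without a slide effect. There, 87.5% of 200 probes changed by 3 (log2) met the criteria, as did 222 unchanged probes. The number of arrays limits the precision: an exact permutation test of 2 against 2 cannot go below 0.333.

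A replicate number stands for 1 slide and 1 scan in both genotypes, and the deviations of arrays that share a number correlated at r = 0.266 across probes, so the slide was also fitted as a block. Named were all 10 markers at every probe (the main probe being the brightest tested), *Meis1*, *Kit*, the stained lineage antigens and, from each other list, genes meeting the criteria or else the 2 with the lowest p. *Slamf9*, *Cd84*, *Hbb-b1*, the 3 erythroid genes below 0 and genes past the criteria only with the block were named after their values were seen. 1 gene that the rule names is not reported here. Markers, lists and roles were chosen with earlier results of these data known. All 16 probes matched RefSeq symbols by accession. Alternatives were other scalings, normexp (offset 50), the authors' table of the same intensities, other filters, an intensity trend, the methods' t-test and arrays left out.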

Additional observations from a re-analysis of the deposited data

How the results depend on the processing

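No surface marker probe met the criteria under any alternative run, each array left out included. Of the 14 tested marker probes, 5 kept their sign throughout (both of *Cd48*, 2 of *Cd244* and *Procr*), of which *Cd244* A_52_P541344 is dim on the second control array. Without scaling between arrays the differences were -0.25 and -0.30 at the brighter and the other *Slamf1* probe, -0.14 at *Cd34*, -0.34 at *Ly6a*, -0.32 at *Cd244* A_52_P26766 and -0.084 at *Esam*, and 2 marker genes, not 6, were above 0. Quantile normalization gave -0.052 at *Cd34* and -0.14 at *Ly6a*, unscaled *Procr* was -0.71, and normexp gave -0.16 at *Ly6a* and 0.19 at *Eng*. With arrays left out, differences ranged from -0.45 to 0.71 and from -0.32 to 0.47 at the *Slamf1* probes, from -0.037 to 0.52 at *Cd34*, from -0.75 to 0.16 and from -1.25 to 0.50 at the brighter and the other *Thy1* probe, from -0.25 to 0.32 at *Ly6a*, from -1.05 to -0.21 at *Eng* (the lowest resting on the dim array), from -0.55 to -0.12 at *Procr*, from 0.082 to 0.51 at *Esam* and from -0.61 to 0.72 at *Cd244* A_52_P26766. The number of marker genes above 0 ranged from 3 (without the second control array) to 6.

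With the slide as a block, in which the arrays are paired by slide, 437 probes of all met the criteria, not 162, and still 0 of the 14. It changed no call of a marker. That count was 49 after normexp (47 lower and 2 higher, against 132 and 30), 294 with no filter on dim probes, 53 with probes well above background on all 4 arrays, 101 with an intensity trend and 30 by the methods' t-test. With arrays left out it ranged from 107 to 2215, the highest without the first Meis1-deficient array and 296 without the second. Of the other genes named, *Flt3*, *Elane* and *Rhag* fell short of the criteria under some alternatives, with the same sign. *Flt3* did without scaling between arrays, by the methods' t-test and without either control array. *Elane* did under median scaling, after normexp, with no filter on dim probes and with an intensity trend. It also did without the first Meis1-deficient or either control array. *Rhag* did under quantile normalization, without scaling, after normexp and with no filter on dim probes. It also did with an intensity trend, by the methods' t-test and without any 1 array. *Meis1* A_52_P26195 (-1.70) and *Slamf7* A_52_P261262 (-2.20) met them with the slide as a block. They also did without the first Meis1-deficient array, but the array then left in that group was below background at both probes, so no size is given. The cause of these shifts was not tested. The depth of the comparison is limited by 2 arrays a genotype and, for *Eng*, *Prom1*, *Cd244* A_52_P541344, *Meis1* A_52_P26195, *Slamf7* A_52_P261262 and *Flt3*, by signal near background on at least 1 array.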
